A study of Mus musculus with 12 samples.

Results

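The genes examined were Fgl2 and the genes of coagulation initiation and its control, measured in mouse granulosa cells before and after an ovulatory dose of hormone. The members are Fgl2, Fgl1, F3, F2r, F5, F10, Procr, Thbd, Tfpi and Tfpi2, and every probe set annotated to one of these symbols was taken. All 10 members were measured, by 18 probe sets, among 18194 genes tested. The study used 12 Affymetrix arrays in 4 groups of 3, and its title names the requirement of Snf2L, an ISWI chromatin remodelling ATPase, for superovulation and its regulation of Fgl2. Wild-type (WT) females were littermate controls of Snf2l Ex6DEL females, in which exon 6 of Snf2l is deleted. The deletion was made with a ubiquitously expressed Gata-1 Cre and loxP-flanked exon 6, and the line was then kept without Cre on a 129SV background. All mice, controls included, were 24 to 26 days old and had been given PMSG (pregnant mare serum gonadotropin, 5 IU), a hormone that makes follicles grow. The 0 h groups were taken after 48 h of it. The 4 h groups were then given 5 IU of hCG (human chorionic gonadotropin), which stands in for the luteinizing hormone surge that triggers ovulation, and were taken 4 h afterwards. Each array carried RNA of granulosa cells pooled from 5 mice. It is not stated in the labels if different mice went into the 3 arrays of each group, and p-values measure only the spread between these arrays, which may be technical.

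Coagulation starts when tissue factor, the product of F3, meets factor VII of the plasma. The complex activates factor X, and activated factor X with its cofactor, factor V, cleaves prothrombin to thrombin. FGL2 is a fibrinogen-like protein whose membrane form cleaves prothrombin without this route, and whose secreted form acts on immune cells. Thrombin signals to cells through PAR1, the product of F2r. Thrombomodulin (Thbd) and the endothelial protein C receptor (Procr) turn thrombin towards the activation of protein C, an anticoagulant, and the Kunitz-type inhibitors TFPI and TFPI-2 block tissue factor complexes and matrix-degrading serine proteases. At ovulation the follicle wall breaks and the ruptured follicle fills with a clot.

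Values are log2 intensities computed by the authors with GCRMA, and 1 unit is a doubling. A value at or below the median of its own array, which lay between 2.75 and 2.91, is called near background here. The floor of the table was 2.21. Of the 9 measured granulosa markers 8 were above background on all arrays, among them Foxl2, Fshr and Inha. The remaining marker, Amh, was at the floor on all arrays. After hCG over both genotypes, 3 of the 9 were lower and 0 higher at a limma adjusted p under 0.05. The mean of Fshr went from 11.85 to 9.41 in WT and from 12.57 to 8.24 in Ex6DEL. All 10 theca and stroma markers, all 8 oocyte markers and 6 of 7 surface epithelium markers were above background on all arrays too. The samples therefore held other cells or their RNA, and detection alone cannot tell which cell type prevailed. The mean of the theca and stroma markers was 8.07 to 9.34 in WT 0 h, 8.22 to 8.69 in WT 4 h and 7.57 to 8.59 in Ex6DEL 4 h. In Ex6DEL 0 h it was 12.11 in replicate 1 against 9.22 and 8.26. In such mixed samples fewer cells of a type and less RNA per cell cannot be told apart. The mean of 9 hCG-induced genes (such as Pgr, Ptgs2 and Ptx3) was 4.44 to 6.06 in WT 0 h, 11.88 to 13.63 in WT 4 h and 12.33 to 13.34 in Ex6DEL 4 h. In Ex6DEL 0 h it was 4.57 and 4.50 in replicates 1 and 2 but 10.78 in replicate 3, an array labelled as collected before hCG. For the members, most differences that moved with that array are given with and without it, and for other genes only with it. Before hCG the probe set of Smarca1 (Snf2l) gave 10.72 ± 0.40 for WT and 10.76 ± 0.18 for Ex6DEL (SD, n = 3), and it does not check the genotype, because its position against exon 6 is not known here.

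The sequences before the transcription start are shown for the 5 members with a match to the AP-1 motif. These 5 also had the largest differences after hCG over both genotypes. Only that of Procr had a limma adjusted p under 0.05. RefSeq promoters (build GRCm38.p6) were matched by symbol for 8 of the 10 members, 11 starts in all. No entry was found for Fgl1 and Thbd. The 250 bases before each start were searched on both strands, and the capitals mark the motif TGANTCA, bound by AP-1 (Fos and Jun dimers). The windows are chr5:21372423-21372672, plus strand, for Fgl2, chr3:121723287-121723536, plus strand, for F3, chr13:95618467-95618716, minus strand, for F2r, chr2:155750967-155751216, plus strand, for Procr, and chr6:3968376-3968625, minus strand, for 1 of the 3 starts of Tfpi2.
Fgl2: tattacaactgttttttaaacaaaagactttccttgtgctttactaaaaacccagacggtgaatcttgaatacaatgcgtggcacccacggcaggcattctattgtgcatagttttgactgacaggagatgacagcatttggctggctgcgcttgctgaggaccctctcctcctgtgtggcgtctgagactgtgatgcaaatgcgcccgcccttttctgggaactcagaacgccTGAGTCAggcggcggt
F3: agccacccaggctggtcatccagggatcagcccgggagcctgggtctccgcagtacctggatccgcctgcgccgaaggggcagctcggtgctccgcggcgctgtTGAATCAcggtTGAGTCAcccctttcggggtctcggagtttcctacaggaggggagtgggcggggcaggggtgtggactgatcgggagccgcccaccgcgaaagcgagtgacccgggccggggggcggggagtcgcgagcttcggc
F2r: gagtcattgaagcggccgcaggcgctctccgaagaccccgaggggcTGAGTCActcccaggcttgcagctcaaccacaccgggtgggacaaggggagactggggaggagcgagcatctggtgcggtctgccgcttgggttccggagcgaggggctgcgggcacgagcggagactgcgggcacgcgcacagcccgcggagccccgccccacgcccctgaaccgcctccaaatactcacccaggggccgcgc
Procr: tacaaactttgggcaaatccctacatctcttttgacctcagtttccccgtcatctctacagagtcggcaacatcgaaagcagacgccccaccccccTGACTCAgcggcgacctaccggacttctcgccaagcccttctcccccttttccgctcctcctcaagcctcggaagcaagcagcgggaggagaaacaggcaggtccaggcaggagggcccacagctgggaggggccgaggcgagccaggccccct
Tfpi2: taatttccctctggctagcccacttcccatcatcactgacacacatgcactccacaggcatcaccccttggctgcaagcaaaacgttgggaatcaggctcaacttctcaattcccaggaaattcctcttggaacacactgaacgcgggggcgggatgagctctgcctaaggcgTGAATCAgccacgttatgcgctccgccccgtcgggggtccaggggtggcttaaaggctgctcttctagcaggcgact
Fgl2 had 1 match, TGAGTCA, at 16 to 10 bases before the start. F3 had 2, TGAATCA at 146 to 140 and TGAGTCA at 135 to 129 bases before the start. F2r had TGAGTCA at 204 to 198, Procr TGACTCA at 154 to 148 and Tfpi2 TGAATCA at 77 to 71 bases before the start. The motif was present in 5 of the 11 member windows, and in 6.75% of all 32851 promoter windows of the same length. The cAMP response element TGACGTCA was in none of the member windows and in 1.55% of all windows. The RUNX motif TGTGGT was in 1, that of F2r (14% of all windows), and the NR5A motif AAGGTCA in 1, that of F10 (4.08%). The GC box GGGCGG was in 7 windows (32.7%), the steroid receptor motif AGAACA in 3 (16.1%), the TATA motif TATAAA in 1 (12.4%) and the NF-kB motif in none (0.356%). None of these motifs overlapped an AP-1 match in the member windows. The motifs were chosen with the sequences and earlier results in view, so their overlap with the hCG differences is no test. A match describes letters, not binding.

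**Figure D1:**
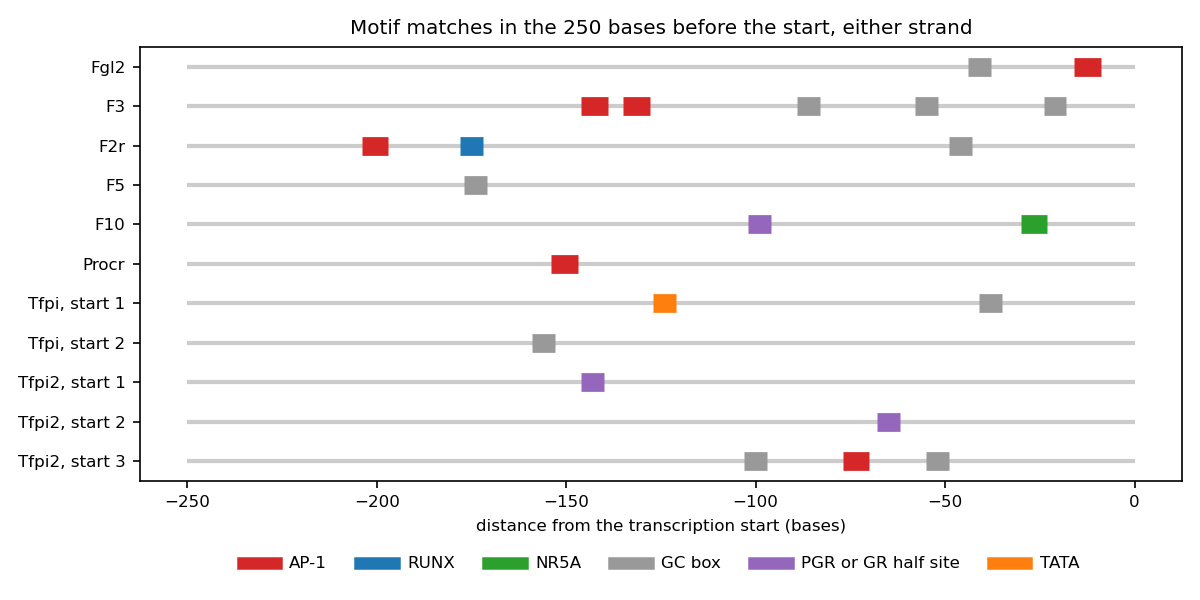
Position of motif matches in the 250 bases before each RefSeq start of 8 members, with distance from the start in bases on the horizontal axis and one line per start. AP-1 matches lie in the windows of Fgl2, F3, F2r, Procr and 1 of the 3 starts of Tfpi2, from 204 to 10 bases before the start.

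Fgl2 and its relative Fgl1 are taken first. The Fgl2 probe set with the higher mean had 4.81, 3.16 and 3.15 in WT 0 h (replicates 1, 2 and 3 in turn, here and below) and 9.41, 4.96 and 6.40 in WT 4 h. In Ex6DEL it had 7.92, 3.20 and 3.82 at 0 h and 7.93, 5.86 and 5.83 at 4 h. After hCG every WT array was higher than before it, by a narrow margin (4.96 against 4.81), and the Ex6DEL arrays overlapped because replicate 1 was as high at 0 h as at 4 h. From low to high the group means were WT 0 h (3.71), Ex6DEL 0 h (4.98), Ex6DEL 4 h (6.54) and WT 4 h (6.92), and the arrays of each neighbouring pair in this order overlapped. Over both genotypes, 6 arrays of 4 h against 6 of 0 h, the difference was 2.39 on the log2 scale (SE 1.04, interval 0.01 to 4.77), which is 5.24-fold. It had an unadjusted p of 0.0490 and a limma adjusted p of 0.214, and so was not called. It passed in 2 of its 10 alternatives, array weights (2.96, adjusted p = 0.0381) among them, and its adjusted p over all 10 ran from 0.0298 to 0.313. The other Fgl2 probe set gave 1.26 (SE 0.63) for the same comparison, with values of 2.49 to 4.07 in WT 0 h, 4.08 to 7.10 in WT 4 h, 2.64 to 5.39 in Ex6DEL 0 h and 4.13 to 4.57 in Ex6DEL 4 h. Both probe sets therefore had a higher mean at 4 h in each genotype, and both had their highest 0 h value in Ex6DEL replicate 1.

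That array was the one with raised theca and stroma markers. It also had the highest mean of the granulosa markers, 12.68, and of the oocyte markers, 9.61, among all arrays. Without it the Fgl2 difference over both genotypes was 3.12 with an adjusted p of 0.0735, and the response in Ex6DEL was 3.03 against 1.56 with it (adjusted p = 0.356 and 0.612). Without Ex6DEL 0 h replicate 2 the response in Ex6DEL was 0.67, and without replicate 3 it was 0.98, while without WT 4 h replicate 1 the response in WT was 1.98 against 3.22. Fgl2 is also made by macrophages and T cells. The 9 measured leukocyte markers had means of 4.85 to 5.39 in WT 0 h, 5.21 to 5.36 in WT 4 h, 4.54 to 5.06 in Ex6DEL 0 h and 5.04 to 5.71 in Ex6DEL 4 h, with none called over both genotypes. Ptprc, the pan-leukocyte marker, was at 3.53 ± 0.44 in WT 0 h and 4.93 ± 0.71 in WT 4 h, and at 3.35 ± 0.57 and 4.79 ± 1.42 in Ex6DEL (SD, n = 3). Of the macrophage markers of the list, Csf1r had 9.09 and 8.90 in WT (means at 0 h and 4 h) and 9.19 and 8.75 in Ex6DEL, and Adgre1 had 7.03 and 6.77 in WT and 6.56 and 7.45 in Ex6DEL. Cd68 had 3.13 and 3.29 in WT and 3.54 and 3.23 in Ex6DEL. Itgam and the T cell marker Cd3e were near background on all 12 arrays. Laptm5, a gene of leukocytes in general, had 11.37 and 10.60 in WT and 8.88 and 11.01 in Ex6DEL. The part of other cells in the Fgl2 values was not tested. Fgl1, a liver-expressed relative that binds the checkpoint receptor LAG-3, was near background on all 12 arrays, between 2.32 and 2.64.

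**Figure D2:**
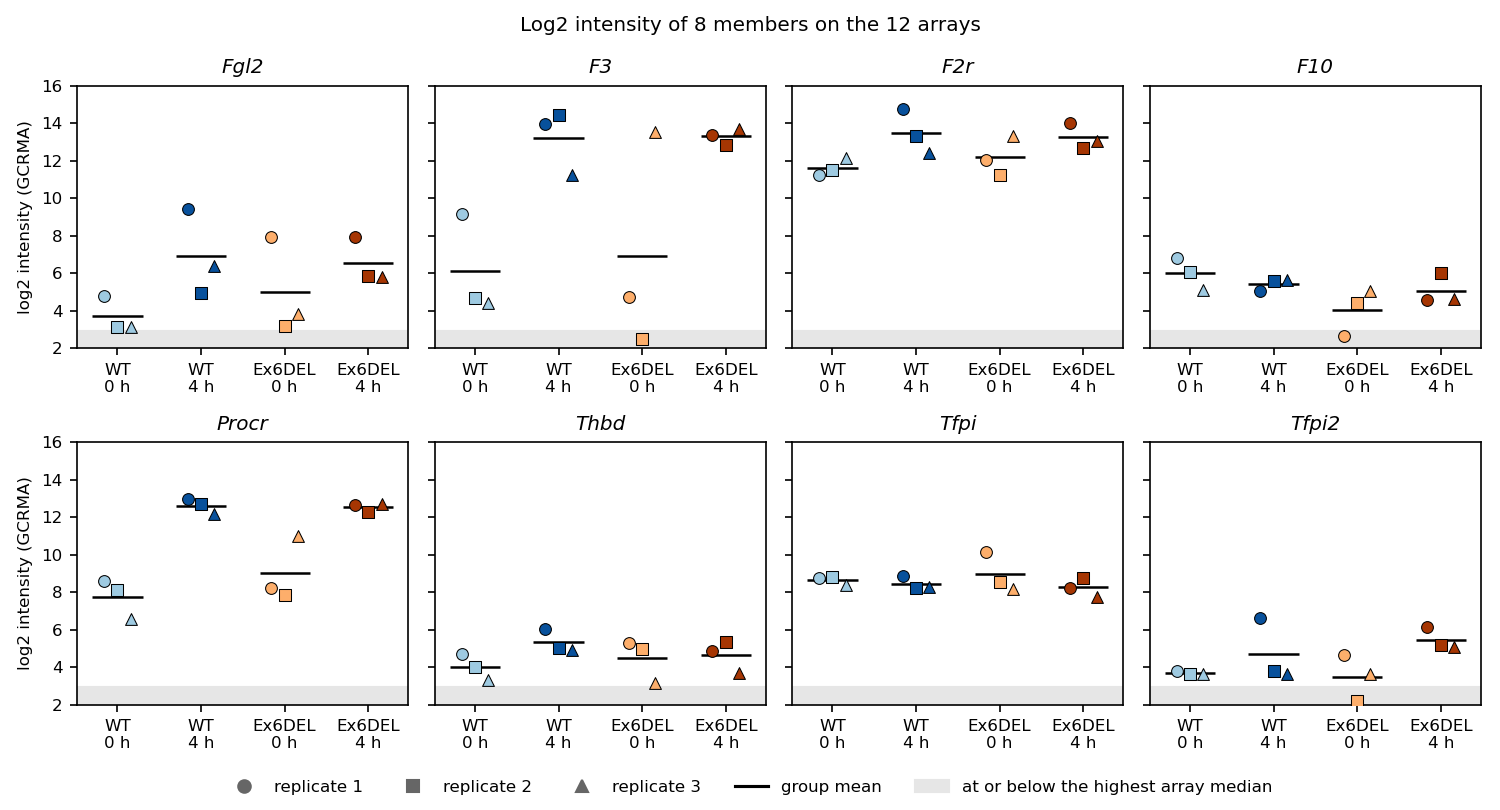
Log2 intensity (GCRMA) of 8 members on the 12 arrays, by group, with one symbol shape per replicate number, a black line at the group mean and grey shading at or below the highest array median. F3 and Procr were high on all arrays of 4 h and on Ex6DEL 0 h replicate 3, and Fgl2 was highest on replicate 1 in every group.

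F3, the tissue factor gene, had the widest range of the members. It had 9.18, 4.70 and 4.44 in WT 0 h and 13.98, 14.47 and 11.24 in WT 4 h. In Ex6DEL it had 4.71, 2.51 and 13.56 at 0 h and 13.37, 12.85 and 13.73 at 4 h. The WT arrays did not overlap between the times, and the Ex6DEL arrays overlapped only through replicate 3 of 0 h, which was as high as the 4 h arrays. Its difference over both genotypes was 6.76 (SE 1.86, interval 2.53 to 10.98) with an unadjusted p of 0.00578 and an adjusted p of 0.0554, just outside the threshold of 0.05. Without Ex6DEL 0 h replicate 3 it was 8.41 (adjusted p = 0.00462), and the response in Ex6DEL alone was 9.71 (adjusted p = 0.0197) against 6.39 (adjusted p = 0.234) with it. Without WT 0 h replicate 1 as well, the other 0 h array with raised hCG-induced genes, the differences were 8.66 in WT (adjusted p = 0.0178) and 9.18 over both genotypes (adjusted p = 0.00220). F3 was near background on 1 array, Ex6DEL 0 h replicate 2, so its low end there is not measured.

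The clotting factors themselves gave little signal. F5, the cofactor of activated factor X, was near background on 11 of 12 arrays by 1 probe set and at the floor of 2.21 on all 12 by the other. F10 was near background on 12 and 10 arrays by 2 probe sets, and its remaining probe set was above background on 11. By that probe set F10 had 6.83, 6.09 and 5.11 in WT 0 h, 5.04, 5.61 and 5.66 in WT 4 h, 2.64, 4.40 and 5.05 in Ex6DEL 0 h and 4.58, 6.01 and 4.65 in Ex6DEL 4 h. Its difference after hCG was -0.57 in WT and 1.05 in Ex6DEL, with adjusted p of 0.795 and 0.493.

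F2r, which encodes the thrombin receptor PAR1, was well above background on all arrays. It had 11.24, 11.51 and 12.14 in WT 0 h and 14.75, 13.31 and 12.45 in WT 4 h, which did not overlap. In Ex6DEL it had 12.07, 11.23 and 13.31 at 0 h and 14.03, 12.67 and 13.07 at 4 h, which overlapped through replicate 3 of 0 h. Over both genotypes its difference was 1.46 (SE 0.49, 2.75-fold) with an unadjusted p of 0.0166 and an adjusted p of 0.106, so it was not called. Without Ex6DEL 0 h replicate 3 the difference was 1.74, and in Ex6DEL alone it was 1.60 against 1.05 with that array. The other probe set gave 0.97 (SE 0.46) over both genotypes with all arrays. Of the other genes fixed for thrombin signalling, F2rl2 and F2rl3, further protease-activated receptors, were near background on all arrays. The G protein genes Gna11, Gna12, Gna13 and Gnaq had differences over both genotypes of -0.54, -0.48, -0.14 and -0.22. Of the 7 measured genes of this list 0 were called in any comparison, but 1 that is not named here passed over both genotypes in 3 of its 10 alternatives. Their median difference over both genotypes was -0.22 against -0.01 for all genes.

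Procr, the endothelial protein C receptor gene, was the only member called after hCG in the fit of all 12 arrays. It had 8.57, 8.14 and 6.54 in WT 0 h and 12.95, 12.71 and 12.15 in WT 4 h. In Ex6DEL it had 8.23, 7.83 and 11.01 at 0 h and 12.64, 12.30 and 12.70 at 4 h. Its 6 arrays of 4 h all lay above its 6 arrays of 0 h, Ex6DEL 0 h replicate 3 included, which no other member showed. Over both genotypes the rise was 4.19 (SE 0.58, interval 2.87 to 5.51), which is 18.3-fold, with a limma adjusted p of 0.00584. Leaving out any one of the 12 arrays kept the call, with an adjusted p of at most 0.0203. In WT alone the rise was 4.86 (SE 0.82, adjusted p = 0.0407), and this call was lost on leaving out any one of 8 of the 12 arrays, at adjusted p of up to 0.140. In Ex6DEL alone the difference was 3.52 (adjusted p = 0.0648), and without Ex6DEL 0 h replicate 3 it was 4.52 (adjusted p = 0.00897). Of the endothelial markers 0 of 9 were called over both genotypes, with means of 4.06 to 5.24 in WT 0 h, 4.76 to 5.07 in WT 4 h, 4.55 to 5.33 in Ex6DEL 0 h and 4.64 to 5.43 in Ex6DEL 4 h, and 5 of the 9 were above background on all 12 arrays. Pecam1, a defining marker, was near background on all 12. Kdr, the endothelial receptor of VEGF, which granulosa cells can also express, was at 7.55 ± 1.42 in WT 0 h, 9.01 ± 0.28 in WT 4 h, 8.28 ± 0.74 in Ex6DEL 0 h and 9.08 ± 0.50 in Ex6DEL 4 h (SD, n = 3). The part of endothelial cells in the Procr values was not tested.

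Thbd, the gene of thrombomodulin, which presents thrombin to protein C, had 4.68, 4.02 and 3.30 in WT 0 h and 6.02, 5.04 and 4.89 in WT 4 h, which did not overlap. In Ex6DEL it had 5.27, 4.97 and 3.13 at 0 h and 4.86, 5.35 and 3.69 at 4 h, where the times overlapped. In WT its difference was 1.32, with an SE of 0.67 and an adjusted p of 0.430. In Ex6DEL it was 0.17 (interval -1.36 to 1.70), and the difference between these responses was -1.15 (SE 0.95, adjusted p = 0.871). Without Ex6DEL 0 h replicate 3 these values were -0.49 and -1.81. Over the 12 arrays Thbd had a Pearson correlation of 0.858 with the mean of the 7 surface epithelium markers. After subtraction of the group means it was 0.974. The part of surface epithelium in the Thbd values was not tested.

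Tfpi, the inhibitor of the tissue factor complex, lay between 7.74 and 8.85 on 11 of the 12 arrays. It had 8.75, 8.80 and 8.37 in WT 0 h, 8.85, 8.24 and 8.26 in WT 4 h, 10.17, 8.53 and 8.17 in Ex6DEL 0 h and 8.23, 8.78 and 7.74 in Ex6DEL 4 h. Its difference over both genotypes was -0.45 (SE 0.35, interval -1.24 to 0.35, adjusted p = 0.532). The high value of 10.17 belonged to Ex6DEL 0 h replicate 1. That array had the highest means of the theca and stroma, granulosa and oocyte markers. Of the other Tfpi probe sets, 2 also had their highest value on that array, 7.11 and 6.17. Each of these 2 had an identical value on 5 of the 12 arrays, 3.85 and 4.95. The remaining probe set was near background on 10 of 12 arrays, that array included (2.40), and was highest on WT 4 h replicate 1 (3.89). The part of stromal RNA in the Tfpi values was not tested.

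Tfpi2, a relative that inhibits plasmin and other matrix-degrading proteases, had 3.81, 3.62 and 3.62 in WT 0 h and 6.62, 3.81 and 3.62 in WT 4 h. In Ex6DEL it had 4.63, 2.21 and 3.62 at 0 h and 6.13, 5.15 and 5.08 at 4 h, which did not overlap. The 2.21 of Ex6DEL 0 h replicate 2 was the floor, so that low end is not measured. An identical value of 3.62 to 4 decimals recurred on 3 arrays and 3.81 on 2, so these readings have no order among themselves. In Ex6DEL the difference was 1.97 (SE 0.85, adjusted p = 0.256), and in WT it was 1.0 with an adjusted p of 0.639. Without WT 4 h replicate 1 the difference in WT was 0.03. Without Ex6DEL 0 h replicate 2 the difference in Ex6DEL was 1.33.

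Counted over the 10 members, limma called 1 after hCG in WT, where it called 0.929% of all genes (0.61% higher), and 0 in Ex6DEL, where it called 2.17% (0.566% higher). At an unadjusted p under 0.05 there were 3 members in WT (14.4% of all genes) and 3 in Ex6DEL (18.9%). Over both genotypes 1 member was called, against 9.72% of all genes (3.1% higher), and 5 had an unadjusted p under 0.05 (F3, F2r, Procr, Fgl2 and Tfpi2), against 23.1%. Array values before and after hCG were separate for 5 members in WT, against 18.9% of all genes, for 2 in Ex6DEL (19.7%) and for 1 over both genotypes (7.67%). All of these members were higher after hCG. Of all genes tested, 7.52%, 5.13% and 2.48% were separate and higher in these comparisons. Of the 10 members 8 had a positive difference over both genotypes, with a median of 1.10 against -0.01 for all genes. Without Ex6DEL 0 h replicate 3 the members called were 2 in Ex6DEL and 2 over both genotypes, F3 and Procr in each. The share of all genes called without that array is not given here.

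**Figure D3:**
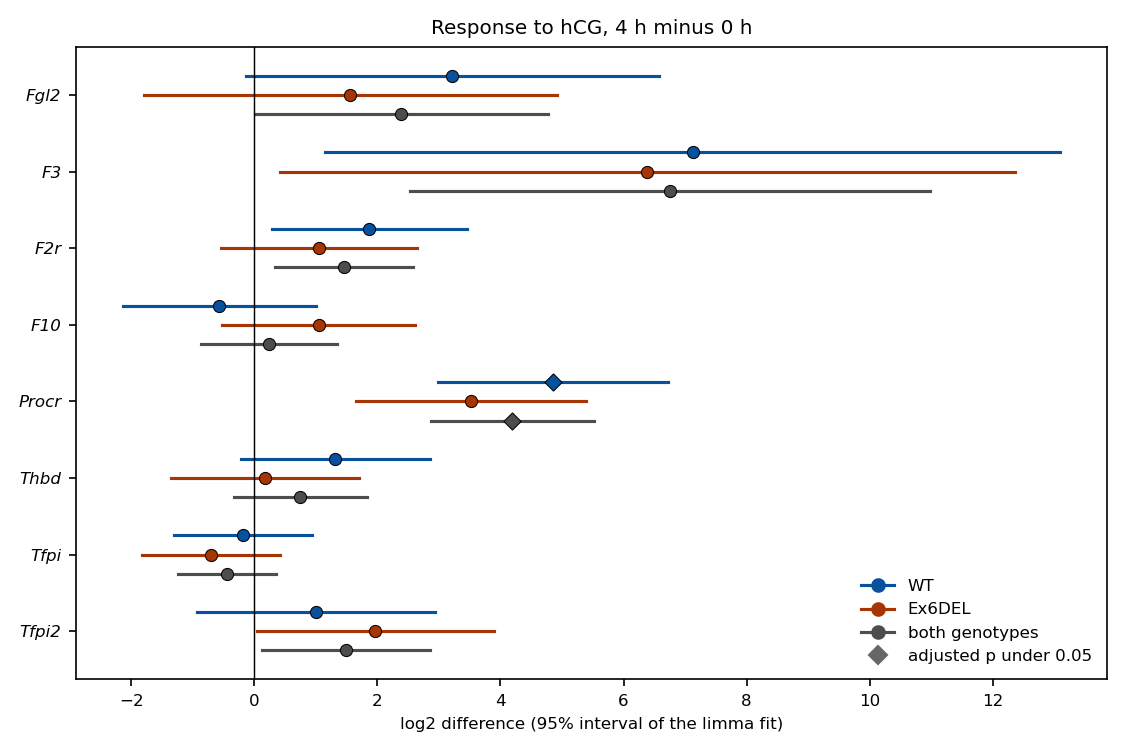
Difference between 4 h and 0 h for 8 members in WT, in Ex6DEL and over both genotypes, on the log2 scale, with 95% intervals of the limma fit and diamonds for an adjusted p under 0.05. Procr was called in WT (4.86) and over both genotypes (4.19), while the wide intervals of F3 lay above 0 without passing the threshold.

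The members followed different arrays. Procr and F3 were high where the hCG-induced genes were high, the replicate 3 of Ex6DEL 0 h included, and F3 was also raised on WT 0 h replicate 1, at 9.18, where the mean of the hCG-induced genes was 6.06 against 4.54 and 4.44. Fgl2 and Tfpi2 were instead highest on replicate 1 in all 4 groups, a pattern found in 1.75% of all genes (2.69% for replicate 2). For Tfpi2 in WT 0 h this rests on recurring low values, 3.81 over 3.62. On Ex6DEL 0 h replicate 3 Fgl2 and Tfpi2 stood at 3.82 and 3.62, far below their 4 h values in Ex6DEL. By Pearson correlation over the 12 arrays among 5000 genes with a range of at least 2 units, the genes most like Fgl2 were Antxr2 (0.953), Cadm1 (0.941), Lmbrd1 (0.929), Tgfbr2 (0.922) and Mgst1 (0.920). Those most like F3 were Ereg (0.990), Crem (0.989), Srxn1 (0.989), Zfp703 (0.984) and Osgin2 (0.984). Those most like Procr were Btc (0.982), Pgr (0.981), Ptgs2 (0.980), Nts (0.979) and Epgn (0.977). After subtraction of the group means these 15 correlations lay between 0.837 and 0.980. They describe arrays that share groups and single deviating arrays, and carry no test.

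**Figure D4:**
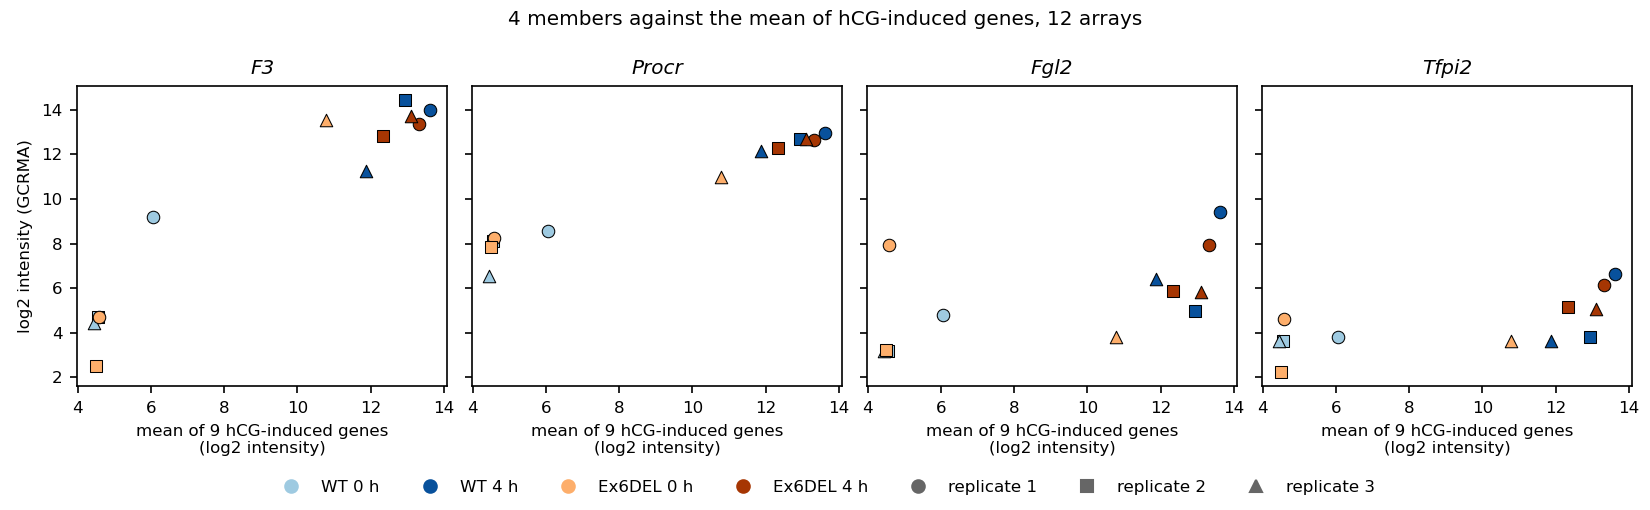
Log2 intensity of F3, Procr, Fgl2 and Tfpi2 on each of the 12 arrays against the mean log2 intensity of 9 hCG-induced genes, coloured by group and shaped by replicate number. Ex6DEL 0 h replicate 3, at 10.78 on the horizontal axis, lies with the 4 h arrays for F3 (13.56) and near them for Procr (11.01), but low for Fgl2 (3.82) and Tfpi2 (3.62).

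The remaining coagulation genes, a list of 33, differed widely in level. Of the 32 measured, 14 were near background on all 12 arrays and 13 were above it on all 12. Over both genotypes 0 rose, 1 fell and 31 did not pass, with a median difference of -0.01, as for all genes. The gene that fell was Vkorc1, the vitamin K reductase needed to make functional clotting factors and protein C, at -1.09 (SE 0.29, adjusted p = 0.0477), from 10.09 ± 0.38 to 9.23 ± 0.44 in WT and from 10.63 ± 0.80 to 9.31 ± 0.28 in Ex6DEL (SD, n = 3). The Vkorc1 call was lost on leaving out any one of 10 of the 12 arrays, at adjusted p of up to 0.110. Gas6, a vitamin K-dependent ligand of TAM receptors, had -1.42 (SE 0.39, adjusted p = 0.0588). It passed in 4 of its 10 alternatives, at adjusted p of 0.0154 to 0.0919 over all 10. Serpina5, the protein C inhibitor gene, had -1.82 (SE 0.60, adjusted p = 0.101), and Thbs1, the gene of thrombospondin-1, had 0.94 (SE 0.37, adjusted p = 0.167). Among 17 measured genes of proteins with a fibrinogen-related domain, the domain that FGL2 and FGL1 carry, limma called 0 in the same comparison, and 9 were near background on all arrays. The vascular ligand gene Angpt2 had -1.02 (SE 0.28, adjusted p = 0.0541) and Angptl1 had -1.36 (SE 0.46, adjusted p = 0.111). Angpt2 passed in 3 of its 10 alternatives, and Serpina5 and Angptl1 in 1 each.

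Between the genotypes no member was called. Limma called 0.033% of all genes at 0 h, 0% at 4 h, 0.0165% over both times and 0.011% for the difference between the hCG responses. At an unadjusted p under 0.05 there was 1 member at 0 h (5.36% of all genes), 0 at 4 h (1.62%), 1 over both times (1.93%) and 0 for the difference between responses (3.2%). The arrays of the genotypes did not overlap for 1 member at 0 h (6.41% of all genes), 0 at 4 h (2.98%) and 0 over both times (0.022%). For Fgl2 the difference between Ex6DEL and WT was 0.45 over both times (SE 1.04, interval -1.93 to 2.82, adjusted p = 1), and the other Fgl2 probe set gave -0.31 (SE 0.63). The 0 h difference of Fgl2, 1.27, was -0.20 without Ex6DEL 0 h replicate 1, and the 4 h difference, -0.38, was 0.86 without WT 4 h replicate 1. The difference between its hCG responses was -1.66, with an interval of -6.41 to 3.10, and was -0.19 without Ex6DEL 0 h replicate 1. These intervals include changes of several units in either direction.

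The member with an unadjusted p under 0.05 was F10. Its Ex6DEL arrays of 0 h (2.64, 4.40 and 5.05) all lay below its WT arrays of 0 h (5.11, 6.09 and 6.83), with 5.05 just under 5.11, and 2.45% of all genes were separate and lower in Ex6DEL in this way. The difference was -1.98 (SE 0.69, interval -3.54 to -0.41, unadjusted p = 0.0193, limma adjusted p = 0.874), and -1.28 without Ex6DEL 0 h replicate 1. At 4 h it was -0.36 (SE 0.69), and over both times -1.17 (SE 0.49, adjusted p = 1). On the array with the lowest F10, Ex6DEL 0 h replicate 1, the 8 oocyte markers had their highest mean, 9.61, and on the array with the highest F10, WT 0 h replicate 1, their lowest, 7.21, and the part of this in the F10 difference was not tested. The other F10 probe sets lay near background and gave -0.02 and 0.22. For Procr the difference was 1.27 at 0 h (SE 0.82, adjusted p = 0.874), and 0.28 without Ex6DEL 0 h replicate 3, and at 4 h it was -0.06 (interval -1.93 to 1.81). For F3 it was 0.82 at 0 h (SE 2.62), and -2.49 without Ex6DEL 0 h replicate 3, and 0.09 at 4 h (SE 2.62). F2r, Thbd, Tfpi and Tfpi2 had 0 h differences of 0.57, 0.46, 0.32 and -0.20 and 4 h differences of -0.25, -0.69, -0.20 and 0.77. Their adjusted p was 0.983 or above, and the 0 h sign of F2r turned under quantile normalization (-0.066). Without Ex6DEL 0 h replicate 3 the 0 h differences were 0.02 for F2r, 1.12 for Thbd and 0.71 for Tfpi.

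**Figure D5:**
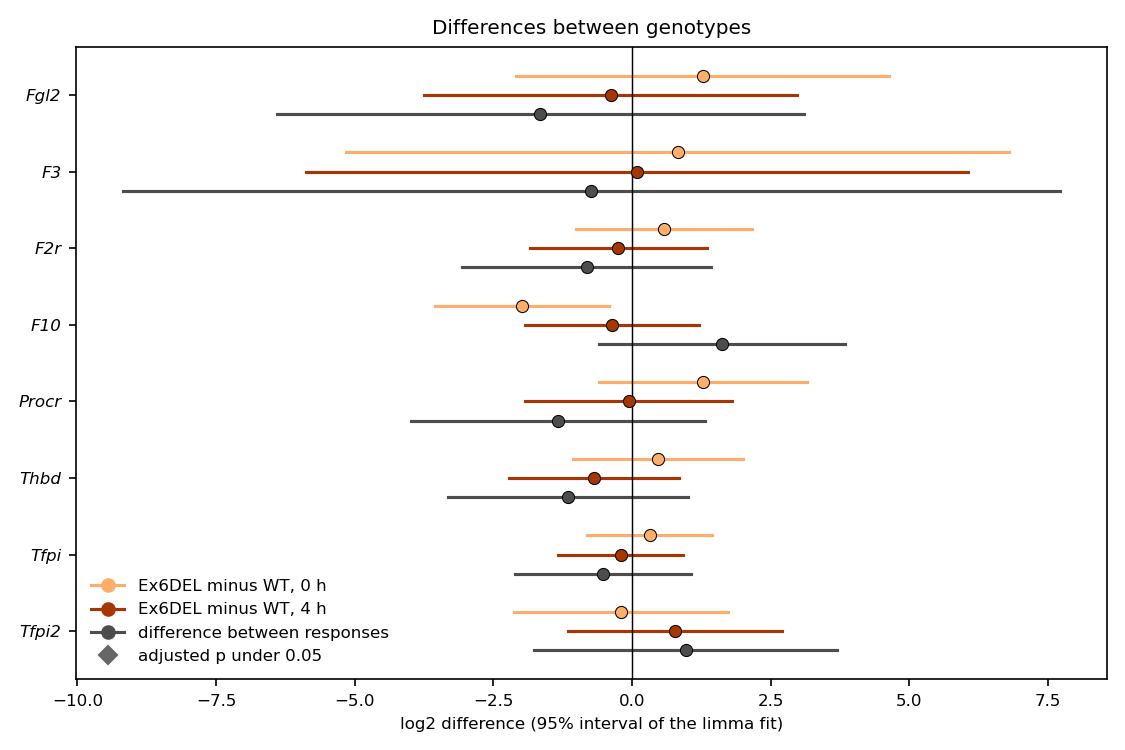
Difference between Ex6DEL and WT at 0 h and at 4 h, and the difference between their hCG responses, for 8 members on the log2 scale with 95% intervals of the limma fit. No adjusted p was under 0.05, and the 0 h interval of F10 (-3.54 to -0.41) lay below 0.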

How the data were processed

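Granulosa cell RNA was measured on 12 arrays in 4 groups of 3 (WT or Ex6DEL, 0 h or 4 h after hCG). The authors deposited 1 log2 intensity for each probe set and array, made with GCRMA (version not given in the sources used here), per the submitters' processing notes. The table held 45101 probe sets. A platform annotation, updated through gene identifiers, gave 1 symbol to 34958 of them, several to 932 and none to 9211. A gene was represented by its probe set with the highest mean, which left 18194 genes.

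One model of 4 groups was fitted to all genes by lmFit and eBayes of limma 3.58.1 under R 4.3.3, on 8 residual degrees of freedom, with two-sided moderated tests adjusted by Benjamini-Hochberg over all genes and called at an adjusted p under 0.05. Every probe set was also fitted by itself. The contrasts were the hCG response in WT, in Ex6DEL and over both genotypes, the genotype difference at 0 h, at 4 h and over both times, and the interaction. The script was tested on simulated data. The number of arrays limits the precision.

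The members, lists and alternatives were chosen with earlier results of these data known. Named genes are the 10 members, the 5 genes most correlated with Fgl2, F3 and Procr (predicted genes left out), up to 4 genes with the smallest p of the coagulation and fibrinogen-domain lists, and the thrombin receptor partners, of which 1 is counted but its value is not reported here. Of the hCG-induced genes Areg and of the partners F2rl1 had no probe set with 1 symbol. Marker lists of surface epithelium, platelets and red blood cells were computed as well, and 0 of their 7, 7 and 4 measured genes were called after hCG over both genotypes. In Ex6DEL alone 1 platelet marker was called higher after hCG.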

Additional observations from a re-analysis of the deposited data

How the results depend on the processing

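The rise of Procr over both genotypes kept its direction and passed under every alternative run, the fits without 1 array included, and no member was called between the genotypes under any of them. Over both genotypes the number of members called was 2 after all arrays were shifted to one median, 3 among genes above the median level, 3 with array weights and 2 with the replicate block. In Ex6DEL it was 1 after the median shift and 1 among genes above the median level. In WT it was 2 with array weights and 0 when every probe set was fitted by itself. It was also 0 with only the groups compared and 0 with the replicate block. Shares of all genes called at these settings, or with arrays left out, are not given here. The counts of members therefore cannot be set against them. The Fgl2 difference over both genotypes passed with array weights (2.96, adjusted p = 0.0381) and with the replicate block (2.39, adjusted p = 0.0298). F3 over both genotypes passed after the median shift (adjusted p = 0.0409), among genes above the median level (0.01) and with array weights (0.0173), and F2r among genes above the median level (0.0305). Over its 10 alternatives other than 1 array left out, the adjusted p of F3 ran from 0.0022 to 0.0858 and that of F2r from 0.0305 to 0.161. The labels do not say that the replicate numbers pair the arrays, and 11 of 18, not all, same-numbered pairs of deviations correlated above 0.1 (median 0.208), against 7 of 36 other pairs (median -0.0875). An array correlated best with its own number in 22 of 36 comparisons, which is a hint of pairing from the data, not the design. The cause of these changes was not tested.

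Leaving out 1 array, or the pair of 0 h arrays with raised hCG-induced genes (replicate 1 of WT, replicate 3 of Ex6DEL), gave 0 to 2 members called in WT, 0 to 2 in Ex6DEL and 1 to 2 over both genotypes. The hCG differences that changed sign ranged from -0.49 to 0.64 for Thbd in Ex6DEL and from -0.11 to 0.70 for F10 over both genotypes. The genotype differences at 0 h ranged from -0.20 to 2.40 for Fgl2, -2.49 to 3.03 for F3, -0.17 to 1.06 for F2r, -0.29 to 0.76 for Tfpi and -0.77 to 0.44 for Tfpi2. At 4 h they ranged from -1.36 to 0.86 for Fgl2, -0.90 to 0.71 for F3, -0.77 to 0.38 for F2r, -0.29 to 0.11 for Procr and -0.47 to 0.053 for Tfpi. Over both times they ranged from -0.29 to 1.07 for Fgl2, -1.20 to 1.56 for F3, -0.21 to 0.48 for F2r, -0.32 to 0.39 for Thbd and -0.24 to 0.28 for Tfpi. The difference between responses ranged from -2.94 to 2.58 for F3 and from -0.97 to 0.086 for Tfpi. Without that pair F3 had -0.96 at 0 h, -0.43 over both times and 1.05 for the difference between responses. F2r then had -0.17 at 0 h and -0.21 over both times, and Thbd had 0.39 over both times and -0.49 after hCG in Ex6DEL.

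Other signs turned near 0. Under quantile normalization F2r had -0.066 at 0 h, 0.0015 at 4 h, -0.033 over both times and 0.068 for the difference between responses, while Procr had 0.12 at 4 h and Tfpi -0.048 over both times. With low values raised to the table median Tfpi2 had 0.0073 at 0 h. Array weights gave Tfpi -0.17 at 0 h and -0.19 over both times, and the mean of all probe sets gave Gna12 0.024 after hCG over both genotypes. Fgl1, F5 and most F10 probe sets lay near background, where a change cannot be measured.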
